A study of Homo sapiens with 24 samples.

Results

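The comparison described here is the later against the earlier response to interferon beta (IFN) in cells depleted of BOP1: the 3 libraries taken 12 h after IFN against the 3 taken 8 h after IFN, all with BOP1 siRNA, 6 of the 24 libraries of the series. Libraries were chosen by their column names, which give siRNA, treatment, time and number. All 24 come from A549, an established line from a human lung adenocarcinoma, transfected for 48 h with a SMARTpool (a mix of several siRNAs to 1 transcript) and then kept for 8 h or 12 h with 1000 U/mL of IFN or with a mock treatment. The other siRNA, in 12 of the 24 libraries, is a control to firefly luciferase (siFLuc), an insect gene. The siBOP1 mock libraries at 8 h and 12 h (6 libraries) and the siFLuc libraries with IFN at 8 h and 12 h (6 libraries) are used for the tests of differences and for levels beside the results, and the siFLuc libraries also to define the genes that IFN moves. All 24 libraries enter the shared estimate of spread. RNA was taken with TRIzol and a column kit with DNase, and libraries were made with a stranded kit for polyadenylated RNA. Nothing in the labels says that the libraries of a group came from separate cultures, so every p-value measures only the spread between these libraries, which may be technical.

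Interferon beta binds a receptor made of IFNAR1 and IFNAR2, whose kinases JAK1 and TYK2 activate STAT proteins. With IRF9 these form a factor that binds a short DNA element, the interferon-stimulated response element (ISRE), in front of antiviral genes, while USP18 and SOCS proteins dampen the receptor. Antiviral effectors such as the IFIT, OAS and MX genes come on early, and the genes that load peptides on HLA class I molecules belong to the same response. Heat shock proteins are chaperones that fold other proteins, and HSF1 drives their genes through the heat shock element when unfolded protein accumulates. BOP1 forms the PeBoW complex with PES1 and WDR12, which is needed to process the RNA of the large ribosomal subunit.

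Values are TPM, a transcript's share of its library scaled to a total of 1000000. They carry no information on depth, which is therefore unknown for all 24 libraries. Changes are limma estimates of the mean difference in log2(TPM + 1), 12 h minus 8 h, with their standard error (SE). This scale understates the change of low genes. A gene is called where its p-value, adjusted over the 16062 genes tested, is under 0.05. In each group 1 library carries the number 4, whereas the labels number replicates up to 3. In the 6 libraries compared, those numbered 4 stood apart from the other 2, which was not so in every other group (with siBOP1 and mock at 8 h, for example, library 1 correlated best with library 4). At 12 h with IFN, the Pearson correlation of log2 values was 0.986 between libraries 1 and 2 but 0.976 and 0.977 with library 4. The calls of 58 genes named here were therefore checked on libraries 1 and 2 alone. There 8 of them lost the call, and each of these is marked where it is described. MVP-DT, ASAP2, CATSPERG, SP140L and LINC02328, named further below, were also called but are not among the 58. Among A549 and lung epithelial markers 11 of 15 reached 1 TPM in a library, with keratins KRT8 (2723 to 3140 TPM) and KRT18 (1843 to 2258 TPM) high and the type II alveolar genes SFTPB, SFTPC and NKX2-1 all under 1 TPM. Of 9 leukocyte markers 3 reached 1 TPM in a library: CD68 (170 to 402 TPM), CD14 (2.04 to 4.28 TPM) and ITGAM (up to 2.23 TPM). The T cell gene CD3E and the B cell gene MS4A1 were at 0. Of 8 fibroblast markers 2 reached 1 TPM, COL1A1 (7.24 to 18.2 TPM) and THY1 (1.2 to 3.61 TPM), and none of 6 endothelial markers did.

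BOP1, the target of the siRNA, stood at 16.6, 16 and 17.1 TPM in the 8 h IFN libraries numbered 1, 2 and 4 and at 10.7, 10 and 12.5 TPM at 12 h. All 3 later libraries were below all 3 earlier ones. In the siBOP1 mock libraries BOP1 held 18, 18.4 and 19.5 TPM at 8 h and 15.6, 15.4 and 13.7 TPM at 12 h, also without overlap. In the siFLuc libraries with IFN, BOP1 averaged 56.1 ± 8.23 TPM at 8 h and 46 ± 14.7 TPM at 12 h (SD, n = 3 each). The change of BOP1 between the times with siBOP1 was -0.55 (SE 0.18) with an adjusted p of 0.101 in limma, and the two-sided exact permutation test gave p = 0.1, the smallest possible for 3 against 3 libraries. On libraries 1 and 2 alone the change was -0.61 (limma adjusted p = 0.0237).

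Between 8 h and 12 h of IFN, 393 genes rose (2.45% of those tested) and 82 fell (0.511%) with BOP1 siRNA. On this scale 39 rises and 8 falls reached 2-fold. These counts were 101 and 13 with a pseudocount of 0.1 TPM, 19 and 19 after median-of-ratios rescaling, 12 and 16 after quantile normalization, and 52 and 20 on libraries 1 and 2 alone. Without the 12 h library numbered 2 they were 16 and 6, and without the 8 h library numbered 4 they were 17 and 5. The largest falls were heat shock chaperones, and the largest rises included YPEL3, linked to growth arrest, and the autophagy kinase ULK1. Most interferon-stimulated genes were not called in either direction. In bulk RNA, a smaller share of cells with a transcript and less of it per cell cannot be told apart. Without regard to the test, the 3 later libraries all lay above the 3 earlier ones for 2954 genes (18.4%) and all below them for 877 (5.46%). On libraries 1 and 2 alone 564 genes rose (3.51%) and 333 fell (2.07%), and they held 271 of the 393 rises (69%) and 68 of the 82 falls (82.9%).

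The split between rises and falls depended on the scaling. In the deposited TPM, 82.7% of the calls were rises and the median change of all genes was 0.09. After median-of-ratios rescaling 268 genes rose and 307 fell (46.6% rises), with a median of -0.01, and after quantile normalization 214 rose and 165 fell (56.5% rises). Of the same 58 genes 12 lost the call after median-of-ratios rescaling: B2M, CALR, PSME2, CXCL11, LGALS9, NECTIN2, CD47, CD68, FER1L4, GABARAPL1, SREBF1 and CDH1. Of the 393 rises 71 passed in each of the 6 fits that left out 1 library of the comparison, and of the 82 falls 18 did. The signs of all 475 were the same in those 6 fits, but these genes were called on the same libraries, so this is no separate check. Leaving out the 12 h library numbered 1 gave 227 rises and 37 falls, and leaving out that numbered 2 gave 93 and 20. Without the 8 h library numbered 1, 2 or 4 the counts were 280 and 48, 180 and 47, and 117 and 32. A fit of only these 6 libraries, with far fewer libraries to estimate the spread, called 5 rises and 7 falls. Genes called higher also had a median transcript GC content of 58.2%, against 49.7% for all genes tested and 47.5% for genes called lower. The part of GC content in the calls was not tested.

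Of 21 heat shock genes tested 10 fell (47.6%, against 0.511% of all genes tested) and none rose. The median change of the list was -0.64, against 0.09 for all genes. HSPA1A, an inducible HSP70 chaperone, held 1458, 1306 and 1060 TPM at 8 h and 205, 227 and 183 TPM at 12 h, a change of -2.62 (SE 0.36, limma adjusted p = 0.000471). Every 12 h library lay far below every 8 h library. Its near-identical neighbour HSPA1B went from 663, 611 and 587 TPM to 80.9, 100 and 80.2 TPM (-2.82, SE 0.54, limma adjusted p = 0.00719). The later mean of HSPA1B was 14% of the earlier one, and that of HSPA1A 16.1%. How reads shared by these 2 copies were assigned is not stated, so each value is uncertain to that extent. The genes lie side by side on GRCh38 chromosome 6 (HSPA1A at 31815464 to 31817946, HSPA1B at 31827735 to 31830255, in GENCODE 29).

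HSPH1, an HSP110 nucleotide exchange factor for HSP70, went from 161, 146 and 196 TPM to 52.4, 54.2 and 80.2 TPM (-1.43). CHORDC1, a co-chaperone of HSP90, went from 148, 140 and 140 TPM to 49.9, 56.3 and 77 TPM (-1.24). In both genes the 12 h library numbered 4 was the highest of the later libraries and still far below the earlier ones. The HSP40 protein DNAJA1, which feeds clients to HSP70, fell from 759 ± 22.5 to 411 ± 41.7 TPM (SD, n = 3 each). HSPA8, the constitutive HSP70 and the most abundant of the list, fell from 2870 ± 82.8 to 1677 ± 63.7 TPM, a change of -0.78. STIP1, which links HSP70 to HSP90, fell by 0.84 on the log2 scale, HSP90AA1 by 0.73, HSP90AB1 by 0.48 and the mitochondrial co-chaperonin HSPE1 by 0.40. DNAJB1, the HSP40 partner of HSP70, had no overlap either (144 ± 6.1 against 68.4 ± 3.44 TPM) but did not pass (limma adjusted p = 0.147). HSPA8, STIP1, HSP90AA1, HSP90AB1, HSPE1 and DNAJB1 were singled out after their values were seen.

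HSPA1A, HSPA1B, HSPA8 and STIP1 passed whichever library was left out. The other 6 lost the call without at least 1 library, and HSP90AA1 lost it without any 1 of the 6, with limma adjusted p from 0.0595 to 0.177. The siFLuc mock library numbered 4 at 12 h is not part of the comparison but enters the shared estimate of spread, and it held HSPA1B at 1277 TPM, against 117 and 101 TPM in the other 2 of its group. On libraries 1 and 2 alone 18 of the 21 genes fell, against 2.07% of all genes tested, with a list median of -0.79. HSPA1A and HSPA1B changed by -2.67 and -2.81 there.

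**Figure D1:**
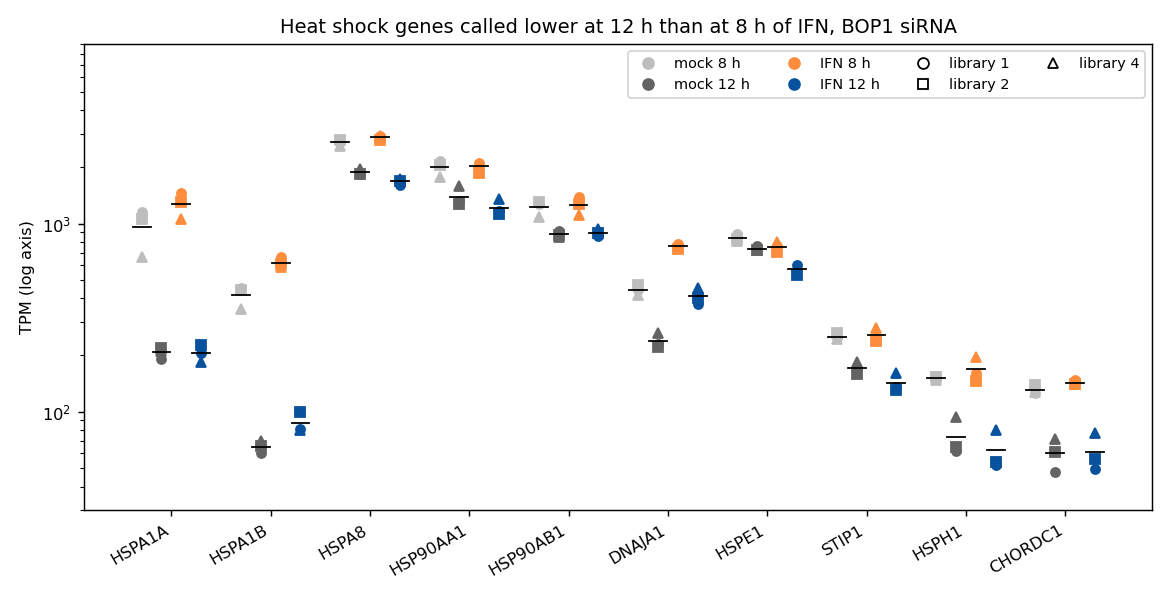
TPM (log axis) of the 10 heat shock genes called lower, in each siBOP1 library by treatment and time, with bars at the group means. HSPA1A drops from 1060 to 1458 TPM at 8 h of IFN to 183 to 227 TPM at 12 h, and the mock libraries show a drop between the same times.

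Heat shock genes also fell without IFN: 4 of the 21 were called lower (against 0.0934% of all genes tested), HSPA1A, HSPA1B and HSPA8 among them. Below 0 were 19 of the 21 estimates, against 7045 of all 16062. In mock-treated siBOP1 cells HSPA1A went from a mean of 956 to 206 TPM (-2.17, limma adjusted p = 0.0103) HSPA1B from 416 to 65.3 TPM (-2.65, limma adjusted p = 0.0393) and HSPA8 from 2698 to 1876 TPM (-0.52, limma adjusted p = 0.0333). In siFLuc cells with IFN the changes were -1.92 for HSPA1A and -2.55 for HSPA1B. The list medians were -0.52 in both of those comparisons. The time by IFN interaction of the 2 genes was -0.45 and -0.18, both with a limma adjusted p of 1, so no dependence on IFN was shown.

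A heat shock element was searched as GAANNTTCNNGAA on both strands from 250 bases before to 50 bases after the RefSeq gene start. It was found in 3 of the 10 heat shock promoters called lower (30%) and in 3 of 19 of the whole list (15.8%). The share was 0.487% of all 27305 promoters of the table and 0.318% of those of tested genes. Among all genes called lower it was in 4 of 65 promoters (6.15%), and among those called higher in 0 of 308. A match is a description of these letters and not a measured site. The windows of the 2 genes with a match before the start are shown because they hold the element in genes that fell, 5′ to 3′ on the strand of the gene, in GRCh38.p14, with the matches in capitals and overlapping matches joined. The CHORDC1 window is chr11:90223075-90223121 and that of HSPA8 is chr11:123062342-123062378, both on the minus strand.
CHORDC1: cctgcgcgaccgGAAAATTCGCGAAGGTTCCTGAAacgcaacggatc
HSPA8: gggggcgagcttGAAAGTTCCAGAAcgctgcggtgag

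Interferon-stimulated genes were already high at 8 h and most were not called between the times. Over 12 interferon lists, which leave out chemokines and checkpoint ligands, 125 genes were tested. Of them 7 rose (5.6%, against 2.45% of all genes tested) and 1 fell (0.8%, against 0.511%). There were 59 estimates above 0 and 66 below it, with a median of -0.03. Among all 16062 genes tested 10166 were above 0 and 5841 below it, with a median of 0.09. On libraries 1 and 2 alone 15 rose and 14 fell, against 3.51% and 2.07% of all genes tested. All later libraries lay above all earlier ones for 30 of these genes (24%, against 18.4% of all genes tested) and below them for 21 (16.8%, against 5.46%). The 42 genes of the list of other antiviral effectors had a median of -0.19 and 1 fall, the 7 MX and GBP GTPases a median of -0.26 with none called, and the 4 IFIT genes -0.23 with none called. The 16 genes of HLA class I and peptide loading had a median of 0.27 with 3 rises, the 11 IFITM, IFI6, IFI27 and IFI44 genes 0.33 with none called, and the 21 chemokines and cytokines 0.34 with 1 rise. After median-of-ratios rescaling these 6 medians kept their signs, at -0.31, -0.38, -0.35, 0.15, 0.21 and 0.24 in the same order. The medians of the IFIT genes and of the chemokines rested largely on the libraries numbered 4: on libraries 1 and 2 alone they were -0.05, with 1 IFIT gene called lower, and 0.18.

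**Figure D2:**
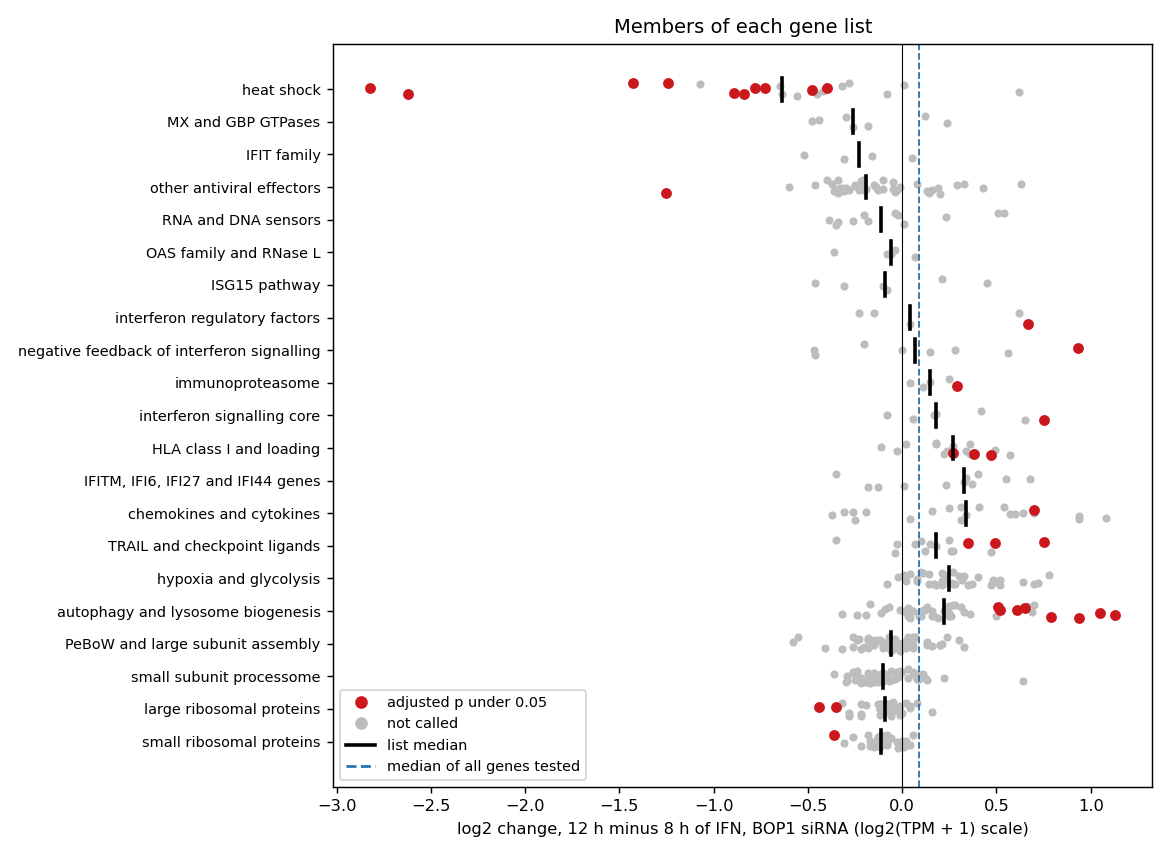
log2 change between 8 h and 12 h of IFN with BOP1 siRNA for each tested member of 21 gene lists, red where called; black ticks mark list medians and the dashed line the median of all genes (0.09). Heat shock genes lie to the left, down to -2.82, and the called HLA class I genes lie to the right of 0.

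IFIT1, which binds viral RNA caps, held 1384, 1436 and 1357 TPM at 8 h and 1268, 1338 and 841 TPM at 12 h. The 12 h library numbered 4 was far the lowest, the groups did not overlap, and the change was -0.31 (limma adjusted p = 0.694), or -0.11 on libraries 1 and 2 alone. IFIT2 averaged 1010 ± 171 and 1064 ± 296 TPM, with overlapping groups. The GTPase MX1 went from 896, 843 and 815 TPM to 701, 732 and 644 TPM. These groups did not overlap, but the change of -0.30 did not pass (limma adjusted p = 0.447). OAS1, which makes the second messenger of RNase L, averaged 986 ± 76.1 and 951 ± 115 TPM, and OAS2 354 ± 11.1 and 345 ± 28.2 TPM. The ubiquitin-like modifier ISG15 held 1895, 2013 and 1893 TPM and then 2514, 2465 and 1784 TPM, so libraries 1 and 2 were higher at 12 h and library 4 was not. RSAD2, or viperin, averaged 62.3 ± 11.5 TPM and then 44.7 ± 5.83 TPM (change -0.46, limma adjusted p = 0.151). In mock-treated siBOP1 cells IFIT1 averaged under 2 TPM at both times (1.77 and 1.8), and MX1 1.16 and 1.82 TPM.

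Among the effectors, SAMD9L (-0.60), GBP1 (-0.48) and IFIT5 (-0.52) had 3 later libraries below the 3 earlier ones without a call, and all 3 were called lower on libraries 1 and 2 alone (limma adjusted p = 0.0178, 0.0275 and 0.025). SLFN5 and LY6E lay the other way (0.63 and 0.43) and were called higher on libraries 1 and 2 (limma adjusted p = 0.0135 and 0.00559). IFI27, a mitochondrial interferon-induced protein, held 612, 691 and 706 TPM and then 1197, 1057 and 966 TPM. All later libraries were above all earlier ones, and the change of 0.68 (SE 0.28) did not pass (limma adjusted p = 0.204).

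EPSTI1, an interferon-induced gene first described in the epithelial response to stroma, was the only antiviral effector called. It held 3.91, 4.8 and 5.35 TPM at 8 h and 1.65, 1.16 and 1.36 TPM at 12 h, a change of -1.25 (SE 0.17, limma adjusted p = 0.000497). The later mean was 29.7% of the earlier one. On libraries 1 and 2 the change was -1.16 (limma adjusted p = 0.013), and it passed whichever library was left out. In siFLuc cells with IFN, EPSTI1 averaged 3.29 and 3.05 TPM (-0.08), and in mock-treated siBOP1 cells 0.0637 and 0.2 TPM.

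Of the 16 genes of HLA class I and peptide loading 3 rose (18.8%, against 2.45% of all genes tested) and none fell. For 7 of them all later libraries lay above all earlier ones (43.8%, against 18.4%). B2M, the light chain of HLA class I, held 3418, 3457 and 3510 TPM at 8 h and 4681, 4522 and 4346 TPM at 12 h (0.38, SE 0.08, limma adjusted p = 0.00998). Each later library was above each earlier one, with library 4 the lowest at 12 h. CALR, a chaperone of the loading complex, rose by 0.27, and PSME2, a subunit of the proteasome activator PA28, rose by 0.29. HLA-B (0.49) and HLA-F (0.57) had no overlap but did not pass (limma adjusted p = 0.22 and 0.0973); on libraries 1 and 2 HLA-B was called (limma adjusted p = 0.008). After median-of-ratios rescaling none of the 16 genes was called in either direction, and B2M lost the call without the 12 h library numbered 2 (limma adjusted p = 0.0508). Leaving out single libraries took PSME2 up to an adjusted p of 0.113 and CALR to 0.153. HLA genes are paralogs, and how shared reads were assigned is not stated.

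In the signalling lists 1 of 7 core genes, 1 of 8 negative regulators and 1 of 5 regulatory factors rose and none fell. These shares (14.3%, 12.5% and 20%, against 2.45% of all genes tested) each rest on 1 gene. IFNAR2, a receptor chain, rose from 18.5, 15.6 and 12.5 TPM to 22.4, 27.8 and 30 TPM (0.75, SE 0.16, limma adjusted p = 0.0157). PTPN6, a phosphatase that dampens cytokine receptors, rose from 14, 19.6 and 10.9 TPM to 28.4, 29.7 and 27.1 TPM (0.93, limma adjusted p = 0.0079). IRF3, the factor that switches on interferon genes, rose from 51.2 ± 6.05 to 82.3 ± 10.4 TPM (0.67, limma adjusted p = 0.00839). USP18, which blocks the receptor, held 233, 232 and 248 TPM and then 159, 161 and 200 TPM. Its groups did not overlap and its change of -0.46 was at the threshold (limma adjusted p = 0.0501; 0.0346 on libraries 1 and 2). IRF9 (177 ± 6.03 and 169 ± 15.7 TPM), IRF1 (251 ± 10.3 and 257 ± 18 TPM) and SOCS1 (23.3 ± 3.04 and 20.2 ± 3.34 TPM) overlapped between the times. IFNAR2 lost its call without the 12 h library numbered 2 or 4 or the 8 h library numbered 4, with adjusted p up to 0.112, PTPN6 without 12 h library 2 or 8 h library 4 (up to 0.0649) and IRF3 without 8 h library 2 (0.0502).

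Of secreted and surface ligands, the chemokine CXCL11 rose from 8.84, 6.6 and 8.91 TPM to 12.6, 12.4 and 16.3 TPM (0.70, limma adjusted p = 0.0345), a call lost without any 1 of the 6 libraries (up to 0.143) and on libraries 1 and 2 (0.0638). CXCL10 averaged 11.2 ± 0.857 and 14.5 ± 0.725 TPM without a call. CCL5 held 8.13, 10 and 10 TPM and then 20.5, 19.2 and 22.9 TPM. No library of one time reached the other, yet the change of 1.08 did not pass (SE 0.37, limma adjusted p = 0.115; 0.0306 on libraries 1 and 2). Among 15 TRAIL and checkpoint genes 3 rose (20%, against 2.45% of all genes tested). LGALS9, or galectin 9, rose from 62.2 ± 8.89 to 105 ± 8.89 TPM and the adhesion receptor NECTIN2 from 129 ± 3.91 to 183 ± 25.9 TPM. CD47, a signal that restrains macrophages, rose from 134 ± 8.44 to 170 ± 5.89 TPM. CD47 was not called on libraries 1 and 2 (limma adjusted p = 0.0802). None of the 3 passed in every fit without 1 library (highest limma adjusted p = 0.175 for LGALS9, 0.221 for NECTIN2 and 0.131 for CD47). CD68, listed as a leukocyte marker, rose from 233 ± 54.4 to 355 ± 55.4 TPM (0.63, limma adjusted p = 0.0387, and up to 0.219 without 1 library), while PTPRC, which all leukocytes carry, was at or under 0.018 TPM in the 6 libraries.

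**Figure D3:**
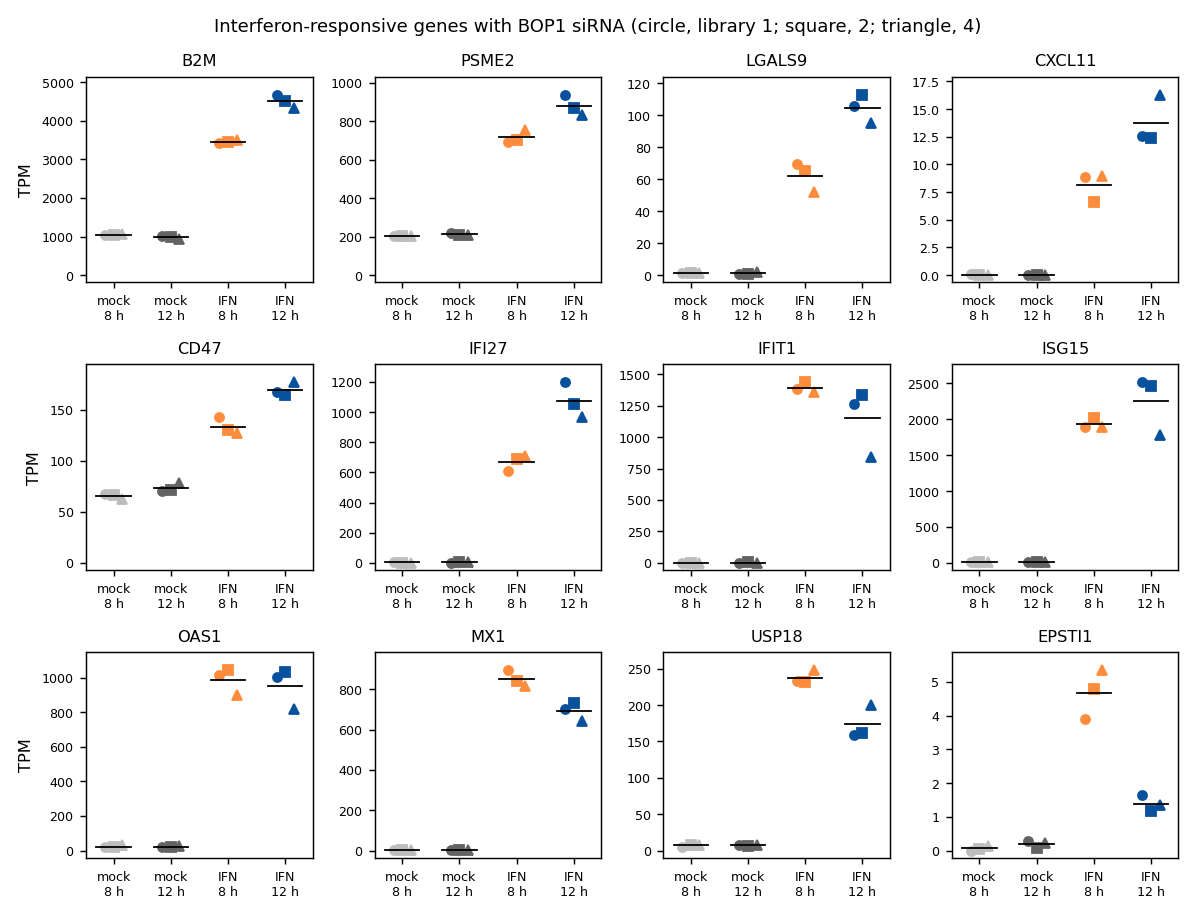
TPM of 12 interferon-responsive genes in each siBOP1 library by treatment and time, with bars at the group means. B2M and PSME2 step up from 8 h to 12 h of IFN, OAS1 overlaps between the times, and EPSTI1 drops from 3.91 to 5.35 TPM to 1.16 to 1.65 TPM.

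A wider set was taken from the siFLuc libraries, which share no sample with the 6: the 570 genes raised at least 2-fold by IFN there at 8 h or 12 h. In siBOP1 cells 17 of them rose between the times (2.98%, against 2.45% of all genes tested) and 5 fell (0.877%, against 0.511%), shares near those of all genes. The median change was 0.11, against 0.09 for all genes, and it was 0.04 on libraries 1 and 2 and -0.00 after median-of-ratios rescaling. Among the falls, singled out after their values were seen, were EPSTI1, ETV7, SP140L and LINC02328. The repressor ETV7 went from 16.4, 20.8 and 16.2 TPM to 12.1, 11 and 10.3 TPM (-0.63, limma adjusted p = 0.0109). Without 1 library its adjusted p reached 0.073. The 122 genes lowered at least 2-fold by IFN in siFLuc cells had 1 rise (0.82%) and 6 falls (4.92%). ACO1, the cytosolic aconitase that as IRP1 controls iron transcripts, fell further, from 24.3, 21.7 and 22.3 TPM to 13.4, 13.7 and 12.1 TPM (-0.76, SE 0.10, limma adjusted p = 0.000527), against 57.3 and 60.8 TPM in the mock groups. The snoRNA host DANCR fell from 12.5, 11.7 and 16.8 TPM to 7.83, 6.53 and 6.86 TPM (-0.85, limma adjusted p = 0.0139, and up to 0.101 without 1 library).

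The ISRE core, searched as GAAANNGAAA on both strands in the same promoter windows, was found in 3.65% of all promoters, in 2.84% of those of tested genes, in 45 of 90 promoters of the interferon lists (50%) and in 82 of 368 promoters of the set raised by IFN (22.3%). Within that set it was in 17 of 78 promoters of genes with all later libraries higher (21.8%) and 16 of 43 with all later libraries lower (37.2%). That difference was not tested. Windows of genes that rose (B2M, PSME2), fell (EPSTI1) or were not called (IFI27, IFIT1) are shown on the strand of the gene, with the core, or its reverse complement, in capitals. They are chr15:44711361-44711400 (plus strand), chr14:24146617-24146650 (minus), chr13:42992270-42992303 (minus), chr14:94110616-94110649 (plus) and chr10:89392495-89392528 (plus), in GRCh38.p14.
B2M: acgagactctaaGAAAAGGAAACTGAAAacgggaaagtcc
PSME2: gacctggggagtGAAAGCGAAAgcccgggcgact
EPSTI1: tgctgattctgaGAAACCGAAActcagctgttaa
IFI27: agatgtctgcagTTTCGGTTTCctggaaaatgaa
IFIT1: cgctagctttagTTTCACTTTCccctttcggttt

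The core stands in front of genes of both directions in these windows. It was in 8 of 308 promoters of all genes called higher (2.6%) and in 3 of 65 called lower (4.62%), near the share of all genes tested. No promoter of the heat shock list held it (0 of 19).

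None of the 12 largest rises named by rule belongs to the interferon lists, though HES7 is among the 570 genes raised by IFN in siFLuc cells. YPEL3, a small zinc-binding protein linked to growth arrest, held 3, 2.99 and 1.83 TPM at 8 h and 9.07, 12.3 and 10.3 TPM at 12 h (1.69, SE 0.19, limma adjusted p = 0.000114). SLC9A3-AS1, an antisense RNA, held 4.04, 4.17 and 4.06 TPM and then 11.7, 17.5 and 15.3 TPM (1.62). In both the later libraries were at least 2-fold above every earlier one. The kit marks strand but strand-aware counting is not stated, so reads of antisense RNAs and their partners may be mixed. The Notch-pathway repressor HES7 rose by 1.35, the corepressor BCORL1 by 1.27, the secreted factor METRNL by 1.26, MAP3K14-AS1 by 1.22 and the Argonaute protein AGO4 by 1.21. NUMBL, a Notch adaptor, rose from 11.8 ± 2.22 to 28.2 ± 3.63 TPM (1.19), and the others were LGSN (1.19), RHPN1 (1.17), the pseudogene transcript FER1L4 (1.15) and ULK1, the kinase that starts autophagy (1.13). YPEL3, SLC9A3-AS1, METRNL, MAP3K14-AS1, NUMBL and RHPN1 passed whichever library was left out, and on libraries 1 and 2 all 12 were called. The other 6 lost the call without at least 1 library: HES7, BCORL1, AGO4, LGSN, FER1L4 and ULK1 reached adjusted p of 0.077, 0.0534, 0.151, 0.194, 0.209 and 0.0659.

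ULK1 held 11.1, 10.3 and 8.87 TPM and then 18.9, 22.7 and 29 TPM, with the highest value in library 4. In a list of autophagy and lysosome genes added after the values were seen, 8 of 49 genes rose and none fell, with a median of 0.22. That is 16.3%, against 2.45% of all genes tested, but a list added so late gives no test of this share. There were 13 rises on libraries 1 and 2 and 5 after median-of-ratios rescaling (median 0.10), where 564 and 268 of all 16062 genes rose. ATG16L2, of the conjugation machinery, rose by 1.05, the lipid transfer protein ATG2A by 0.94 and GABARAPL1, which marks autophagosomes, by 0.79. ATG2A passed in every fit without 1 library, whereas ATG16L2 and GABARAPL1 reached an adjusted p of 0.0699 and 0.177. ABCA1, the cholesterol exporter, rose from 4.9, 4.1 and 3.04 TPM to 8.13, 10.7 and 9.83 TPM (1.08, limma adjusted p = 0.00402), and SREBF1, the lipid synthesis regulator, from 103 ± 24.4 to 168 ± 26.5 TPM (0.72, limma adjusted p = 0.0445; 0.0789 on libraries 1 and 2). The ETS factor ETV1 rose by 0.93 and E-cadherin, CDH1, by 0.49, both calls lost on libraries 1 and 2 (limma adjusted p = 0.0884 and 0.156). Without 1 library SREBF1, ETV1 and CDH1 reached an adjusted p of 0.241, 0.194 and 0.17, and ABCA1 kept its call in all 6 such fits.

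Outside the chaperones, the largest falls named by rule included an antisense RNA and both mitochondrial inner membrane peptidase subunits. ZNF232-AS1 went from 7.89, 10.3 and 12.8 TPM to 3.78, 2.25 and 5.38 TPM (-1.27, limma adjusted p = 0.00176). The subunits IMMP1L and IMMP2L fell from 26.9 ± 7.46 to 12 ± 1.43 TPM (-1.07) and from 25.1 ± 2.24 to 12.6 ± 1.86 TPM (-0.95). SNORC fell by 0.99, LINC03011 by 0.95, the troponin subunit TNNI3 by 0.89 and DIO2, which activates thyroid hormone, by 0.88. ZNF232-AS1 and IMMP2L passed whichever library was left out. The highest adjusted p without 1 library was 0.0643 for IMMP1L, 0.223 for SNORC, 0.0967 for LINC03011, 0.069 for TNNI3 and 0.121 for DIO2, and LINC03011 and DIO2 were not called on libraries 1 and 2 (0.0506 and 0.0787).

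In a list of 32 splicing factors added after the values were seen, 2 rose (6.25%, against 2.45% of all genes tested) and 1 fell (3.12%, against 0.511%). SRSF2 held 333, 323 and 366 TPM and then 205, 196 and 183 TPM (-0.80, SE 0.09, limma adjusted p = 0.000114). HNRNPDL held 186, 188 and 203 TPM and then 285, 291 and 278 TPM (0.56, SE 0.05, limma adjusted p = 2.06e-05), and HNRNPL rose by 0.54. All 3 passed whichever library was left out. In mock-treated siBOP1 cells they changed by -0.84, 0.47 and 0.53, each called.

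Few ribosomal genes were called. Among 46 large-subunit proteins RPL3 and RPL5 fell (4.35%, against 0.511% of all genes tested) and none rose (median -0.09). Among 32 small-subunit proteins RPS3A fell (3.12%, median -0.11). These medians were -0.02 and 0.00 on libraries 1 and 2. RPL3 held 1463, 1558 and 1354 TPM and then 1084, 1051 and 1075 TPM (-0.44, SE 0.08, limma adjusted p = 0.00529), and in mock-treated siBOP1 cells it averaged 1511 and 1512 TPM. Without 1 library RPL5 reached an adjusted p of 0.122 and RPS3A 0.179, and RPS3A was not called on libraries 1 and 2. None of 55 large-subunit assembly factors, 54 genes of the small-subunit processome and 24 of the RNA polymerase I machinery was called. With libraries 1 and 2 alone 4, 2 and 0 of them fell, and after median-of-ratios rescaling 3, 0 and 1 did, with no rise in either. Of all 16062 genes tested 333 and 307 fell in these 2 fits. The partners of BOP1 overlapped between the times: PES1 averaged 70 ± 1.52 and 67.5 ± 4.33 TPM and WDR12 35.4 ± 5.41 and 31.4 ± 6.68 TPM. The snoRNA host SNHG8 fell from 94.8 ± 4.65 to 65.5 ± 2.65 TPM (-0.53, limma adjusted p = 0.00353). XRCC6, a DNA end-binding protein, averaged 113 ± 14.5 and 115 ± 14.9 TPM, and the decoy receptor TNFRSF10D 4.42 ± 0.256 and 5.49 ± 0.629 TPM.

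The same 4 hours without IFN gave 22 rises (0.137%) and 15 falls (0.0934%) in siBOP1 cells. Across the 16062 genes, which are not independent replicates, the changes correlated with a Pearson coefficient of 0.36 and a Spearman coefficient of 0.48. The mock libraries share no sample with the 6 IFN libraries. The 12 h libraries numbered 4 of both were high in genes such as CHAC1 (17.1 TPM in mock, 30.2 TPM with IFN). The part of this in the coefficients was not tested. Of the 393 rises with IFN 382 were above 0 in mock, with a median of 0.34, and of the 82 falls 71 were below 0, with a median of -0.25. Of all 16062 genes 8973 were above 0 in mock and 7045 below it, with a median of 0.03. YPEL3 rose in mock too (1.31, limma adjusted p = 0.00259), and B2M averaged 1042 and 989 TPM there (-0.08).

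**Figure D4:**
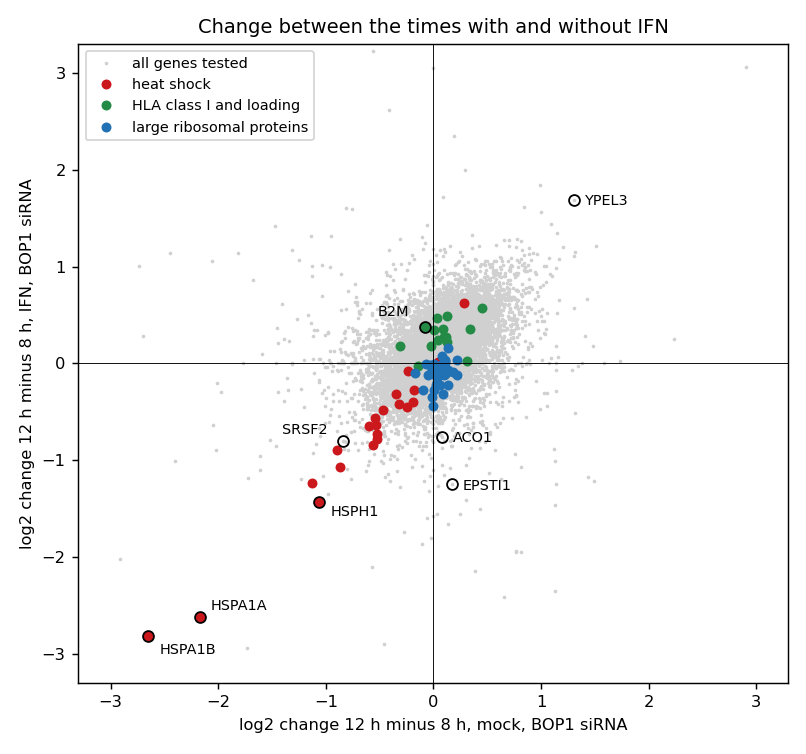
log2 change from 8 h to 12 h in mock (horizontal) and with IFN (vertical) for all genes tested, BOP1 siRNA, with 3 lists coloured and 8 genes ringed; 6 genes lie outside the axes. HSPA1A and HSPA1B fall in both, while ACO1 and EPSTI1 lie at -0.76 and -1.25 with IFN and near 0 in mock.

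A difference between the change with IFN and the change in mock was tested for each gene as a time by IFN interaction. No gene passed in limma (0%). An unadjusted p under 0.05 was seen for 603 of the 16062 genes, a smaller share than 0.05. The 3 smallest p below 0 belonged to EPSTI1 (-1.42, SE 0.24), ACO1 (-0.84, SE 0.15), both with an adjusted p of 0.116, and ZNF232-AS1 (-1.31, adjusted p = 0.657). Above 0 they were MVP-DT (1.22), B2M (0.46) and ASAP2 (0.95), which did not pass (adjusted p = 0.842, 1 and 1). EPSTI1 passed without the intensity trend (adjusted p = 0.0258), ACO1 with the replicate block (0.00902), and TNFRSF10D on libraries 1 and 2 (1.24, adjusted p = 0.0243). TNFRSF10D averaged 45.2 TPM in mock at 8 h and 24.4 TPM at 12 h. With no filter LINC02928 (1.32) and RIMBP2 (-0.20), both singled out after their values were seen, passed.

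With the control siRNA, 455 genes rose (2.83%) and 112 fell (0.697%) between 8 h and 12 h of IFN. Of the 393 rises with siBOP1 204 were called there (51.9% of the siBOP1 and 44.8% of the siFLuc calls), and of the 82 falls 44 (53.7% and 39.3%). Across the 16062 genes the changes correlated with a Pearson coefficient of 0.557 and a Spearman coefficient of 0.648. The 12 libraries share no sample, but the 12 h libraries numbered 4 had a pattern in common. With IFN they held CHAC1 at 30.2 (siBOP1) and 34.9 TPM (siFLuc), against 2.73 to 3.81 TPM in libraries 1 and 2. The part of this pattern in the coefficients was not tested. B2M rose by 0.41 with siFLuc, and ACO1 fell by 0.80. The difference between the siRNAs was tested as a time by siRNA interaction: no gene passed in limma (0%). An unadjusted p under 0.05 was seen for 292 of the 16062 genes, again a smaller share than 0.05. EPSTI1 had the smallest p below 0 (-1.17) and CATSPERG, a sperm calcium channel subunit, the smallest above 0 (1.42), with CATSPERG at 1.21, 1.64 and 1.19 TPM and then 3.97, 6.21 and 3.09 TPM with siBOP1 and at means of 2.2 and 1.64 TPM with siFLuc. The others of the 6 named by p were ENSG00000237188 and RNU6-11P above 0 and RPL17-C18orf32 and CDC26P1 below it. None of the 6 passed, and RIMBP2 alone passed with no filter.

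In the 12 h library numbered 4, 116 genes lay at least 2-fold above both other libraries of the group and 67 at least 2-fold below both, against 18 and 9 for library 1 and 23 and 18 for library 2. CHAC1, a glutathione-degrading target of ATF4, held 1.17, 0.997 and 1.58 TPM at 8 h and 3.2, 2.9 and 30.2 TPM at 12 h. GDF15, a stress cytokine, held 40.5, 48.6 and 48 TPM and then 62.7, 57.9 and 257 TPM. DUSP1, a phosphatase of MAP kinases, held 55.4, 60.4 and 178 TPM at 12 h, MDM2, the ubiquitin ligase of p53, 50.7, 51.5 and 138 TPM, and ODC1, the first enzyme of polyamine synthesis, 17.2, 14.2 and 51 TPM. The p53 target CDKN1A held 67.1, 66.7 and 106 TPM. None of these 6 was called between the times in the main fit. CHAC1 was higher at 12 h in libraries 1 and 2 as well, and over 12 alternative fits its limma adjusted p ran from 0.00981 to 0.434. The mock library numbered 4 at 12 h was high in the same way, with CHAC1 at 17.1 TPM against 1.8 and 1.35 TPM, and GDF15 at 276 against 40.1 and 46.7 TPM.

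Of the list of hypoxia and glycolysis genes, ENO2 and BNIP3 were low in library 4. ENO2, a neuronal enolase, held 63.9, 58.8 and 35.8 TPM at 8 h and 111, 108 and 58.5 TPM at 12 h, and the mitophagy receptor BNIP3 114, 111 and 60.3 TPM and then 194, 185 and 81.2 TPM. In each numbered library the 12 h value was the higher one, but the groups overlapped through library 4. Of the 40 genes of this list 38 were above 0 with a median of 0.25 and none was called. Of all 16062 genes tested 10166 were above 0, with a median of 0.09. On libraries 1 and 2 alone 10 of the 40 rose, against 3.51% of all genes tested. There ENO2 rose by 0.83 (limma adjusted p = 0.00878) and BNIP3 by 0.75 (limma adjusted p = 0.000127). The 8 h library numbered 4 was low in these genes as well.

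**Figure D5:**
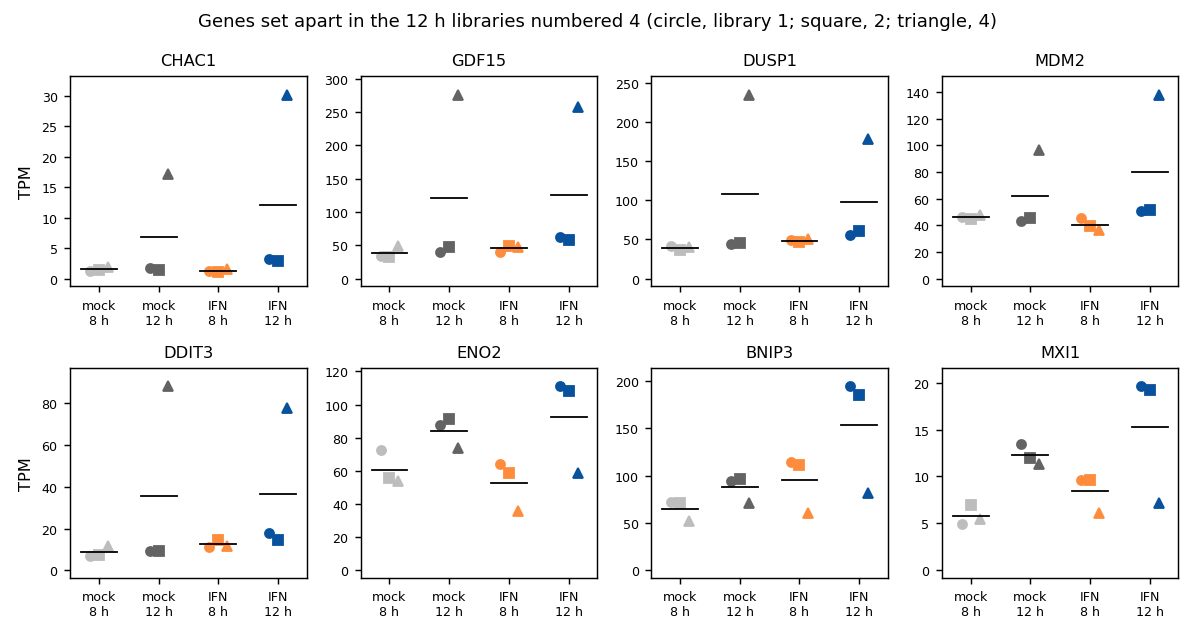
TPM of 8 genes in each siBOP1 library by treatment and time, with bars at the group means. CHAC1, GDF15, DUSP1, MDM2 and DDIT3 are high in the library numbered 4 (triangles) at 12 h with or without IFN, and ENO2, BNIP3 and MXI1 are low there with IFN.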

How the data were processed

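Polyadenylated RNA of A549 cells was measured in 24 libraries, 3 in each of 8 groups. The authors deposited 1 table of TPM values (60609 gene rows, each column summing to 1000000), and the aligner, quantifier, genome build and annotation are not given in the sources used here. Of the 24 columns 16 match a label by group and replicate, and the 8 numbered 4 were used as members of their group. Symbols came from a table of Ensembl IDs (60340 rows) and GENCODE 29 (250 rows), and positions from GENCODE 29 on GRCh38. Promoter windows are RefSeq, GRCh38.p14, matched by symbol for 10995 of 16058 named genes tested.

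The filter kept genes that reached 1 TPM in 3 or more libraries. Tests used limma 3.58.1 (R 4.3.3) on log2(TPM + 1) values (1 mean per group over all 24 libraries, intensity trend, no block) and the Benjamini-Hochberg adjustment within each comparison at 0.05. The script was tested on simulated data. BOP1 also had an exact permutation test. Members and gene lists were chosen with earlier results of these data known. Genes named are BOP1, the 12 largest rises and falls among called genes with no overlap and at least 5 TPM in the higher mean, the 3 smallest p each way for interactions, up to 4 members per list with the largest change, and a fixed set. Some genes under this rule are not reported here. Apart from cell type markers, genes outside it were chosen after their values were seen, and not each of them is marked so where it is described. Alternatives changed the pseudocount (0.1), filter (none, or a mean of 5 TPM), scaling, trend, libraries or block. Fits without the siFLuc mock 12 h library numbered 4, or without all 12 h libraries numbered 4, were added after the data were seen.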

Additional observations from a re-analysis of the deposited data

How the results depend on the processing

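The counts depended on the libraries and the scaling more than the directions of named genes did, though many of these were chosen by their change in the same libraries. Against 393 rises and 82 falls, no filter gave 253 rises, median-of-ratios rescaling 307 falls, quantile normalization 214 and 165, a fit of only the 2 groups compared 5 and 7, libraries 1 and 2 alone 333 falls, and a fit without the 12 h libraries numbered 4 705 and 351. The replicate block gave 884 and 249, and with libraries 1 and 2 alone 643 and 404. Leaving out 1 library gave 93 to 304 rises and 20 to 108 falls. Same-numbered libraries of the 2 groups had correlations of deviations of -0.113, 0.062 and 0.166 for numbers 1, 2 and 4. The 12 h library numbered 4 correlated best with the 8 h library of its own number, and those numbered 1 and 2 did not. The labels state no block.

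The time by IFN interaction, with no call, had 2 with no filter and 1 each without the trend, with the replicate block, on libraries 1 and 2, and on these with the block. The time by siRNA interaction had 1 with no filter. The fall of BOP1 passed after median-of-ratios rescaling (-0.66) and quantile normalization (-0.68), with the replicate block (-0.55), on libraries 1 and 2 with or without it (-0.61), and without the 12 h libraries numbered 4 (-0.63).

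Signs turned for genes near 0. IFIT2 was -0.07 after median-of-ratios rescaling and -0.13 to 0.29 without 1 library. OAS1 was 0.05 without the 12 h libraries numbered 4 and -0.12 to 0.05 without 1 library. OAS2 was 0.01 after quantile normalization and -0.10 to 0.01 without 1 library. IRF1 was -0.08 and XRCC6 -0.09 after median-of-ratios rescaling, and without 1 library they were -0.02 to 0.08 and -0.06 to 0.13. ODC1 was -0.15 on libraries 1 and 2, with or without the block, -0.40 without the 12 h libraries numbered 4, and -0.40 to 0.49 without 1 library. None of these genes passed in any of these fits. The cause of these changes was not tested. The unknown depth gives no limit of detection.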
